A study of Mus musculus with 20 samples.

Results

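The *Cyp4* genes encode cytochrome P450 enzymes that hydroxylate fatty acids at or near the methyl end of the chain. All genes of the deposited tables whose symbol is *Cyp4a10*, *Cyp4a12a*, *Cyp4a12b*, *Cyp4a14*, *Cyp4b1*, *Cyp4f13*, *Cyp4f15* or *Cyp4v3* were taken, which gave 8 of 13842 genes and 11 of 26228 transcripts. Kidney RNA was sequenced from 4 groups of 5 male mice, formed by 2 genotypes, KDM6A Ctrl and KDM6A TubKO, and 2 operations. Mice had either a sham operation or unilateral ureteral obstruction (UUO), in which 1 ureter is tied so that urine backs up into the kidney, and their left kidney was taken after 7 days. KDM6A TubKO mice (Kdm6afl/Y Pax8Cre+) carry a floxed copy of *Kdm6a*, an X-linked gene for a histone demethylase, and a Cre recombinase driven by *Pax8*. This Cre acts in tubule epithelium along the nephron and also in the thyroid. The study found no difference between the genotypes in plasma thyroid stimulating hormone, and less KDM6A protein in KDM6A TubKO kidneys. KDM6A Ctrl mice carry the same Cre without a floxed gene, so both genotypes share the recombinase. Every sample was whole kidney, in which cells that do not express *Pax8* keep *Kdm6a*, and the study's methods call the controls age-matched, while the age they state is that of C57BL/6N mice. Values are FPKM, fragments divided by transcript length and by the size of the library, so levels of different genes can be set side by side.

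An omega hydroxylase places a hydroxyl group on the last carbon of a fatty acid. Alcohol and aldehyde dehydrogenases then turn it into a dicarboxylic acid that peroxisomes shorten. With arachidonic acid as substrate the product is 20-HETE, a lipid that constricts kidney vessels and alters salt transport. In the mouse, *Cyp4a12a* encodes the main kidney enzyme that makes 20-HETE and is known for high expression in males and for its dependence on androgen, whereas *Cyp4a10* and *Cyp4a14* are classic targets of PPARα, the nuclear receptor that senses fatty acids.

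Of the 8 genes, 5 lie together on chromosome 4 (GRCm38): *Cyp4a12a* at chr4:115299046-115332815, *Cyp4a12b* at chr4:115411624-115439034 and *Cyp4a10* at chr4:115518264-115533649 on the plus strand, and *Cyp4a14* at chr4:115486200-115496142 and *Cyp4b1* at chr4:115624725-115647723 on the minus strand. *Cyp4f15* (chr17:32685627-32703352, plus strand) and *Cyp4f13* (chr17:32924688-32947402, minus strand) lie on chromosome 17, and *Cyp4v3* (chr8:45304944-45333216, minus strand) on chromosome 8. Sequences are shown because the neighbours on chromosome 4 are so alike that reads can fit more than 1 of them. In the GENCODE vM21 transcripts, the coding sequences of *Cyp4a12a* and *Cyp4a12b*, each 1524 bases long, differed at 23 positions (98.49% identity). The 60 coding bases around the heme-binding signature of P450 enzymes, with the codon of the heme-binding cysteine in capitals, ran as follows; each stretch crosses a splice junction.
Cyp4a12a: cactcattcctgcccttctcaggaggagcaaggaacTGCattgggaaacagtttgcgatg
Cyp4a12b: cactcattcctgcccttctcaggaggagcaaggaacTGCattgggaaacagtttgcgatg
Cyp4a10: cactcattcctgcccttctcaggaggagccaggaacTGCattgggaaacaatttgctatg
Cyp4a14: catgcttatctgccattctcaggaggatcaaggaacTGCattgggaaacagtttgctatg
Cyp4b1: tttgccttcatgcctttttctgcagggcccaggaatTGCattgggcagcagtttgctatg

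*Cyp4a12a* and *Cyp4a12b* differed at 0 of these 60 bases, *Cyp4a12a* and *Cyp4a10* at 3, *Cyp4a12a* and *Cyp4a14* at 8, and *Cyp4a12a* and *Cyp4b1* at 17. The 60-base window of 1 exon in which *Cyp4a12a* (chr4:115326628-115326687) and *Cyp4a12b* (chr4:115432881-115432940) differ at the most bases is shown next, with the 4 differing bases in capitals.
Cyp4a12a: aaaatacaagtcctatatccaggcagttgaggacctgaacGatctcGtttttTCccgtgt
Cyp4a12b: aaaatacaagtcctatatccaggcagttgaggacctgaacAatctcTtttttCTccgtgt

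Of the 2273 windows of 150 bases (the read length) in the *Cyp4a12a* transcript, 582 (25.6%) also occur in the *Cyp4a12b* transcript. A single read confined to them cannot be assigned to 1 gene by its own sequence. Reads came in pairs, and a mate over a differing base may still place the pair, which these windows do not take into account. For *Cyp4a10*, 85 of 1960 windows (4.34%) occur in another listed *Cyp4* transcript, among them those of *Cyp4a31*, with 96.59% coding identity, and *Cyp4a32*, with 97.18%. No such window was found for *Cyp4a14*, *Cyp4b1*, *Cyp4f13*, *Cyp4f15* or *Cyp4v3*. The split of reads between *Cyp4a12a* and *Cyp4a12b*, and to a lesser degree between *Cyp4a10* and its copies, is therefore uncertain, and their sums are given beside the single values.

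In KDM6A Ctrl sham kidneys the 8 genes spanned 3 orders of magnitude of FPKM. *Cyp4b1* was highest at 679 ± 144 FPKM (SD, n = 5), followed by *Cyp4a10* at 540 ± 367, *Cyp4a14* at 268 ± 284 and *Cyp4a12a* at 87.3 ± 26.6. *Cyp4a12b* had 21.6 ± 7.71 FPKM, *Cyp4f13* 7.62 ± 0.322, *Cyp4v3* 2.31 ± 0.365 and *Cyp4f15* 0.667 ± 0.248. The first 4 levels overlapped between neighbours in this order, whereas from *Cyp4a12a* down each gene lay wholly above the next. By mean level *Cyp4b1* ranked 30 and *Cyp4a10* 40 of all 13842 genes in these kidneys, and *Cyp4f15* ranked 11598. Together the 8 genes reached 1244 to 2386 FPKM in sham kidneys of KDM6A Ctrl mice and 1071 to 1393 in those of KDM6A TubKO mice. Every UUO kidney was below these, with 207.8 to 577.8 FPKM in KDM6A Ctrl and 130.5 to 520.8 in KDM6A TubKO mice.

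**Figure D1:**
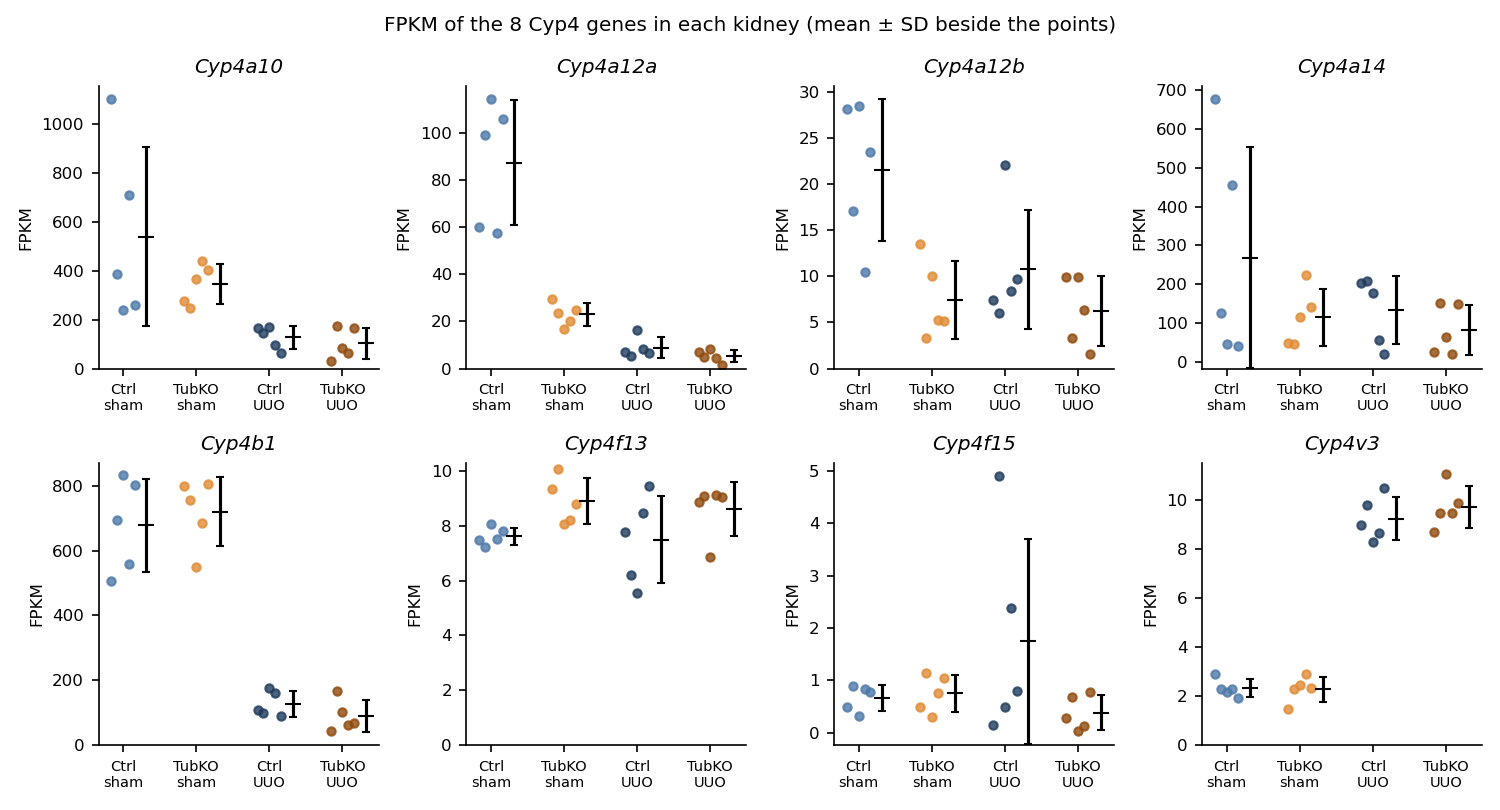
FPKM of the 8 *Cyp4* genes (y axis, 0 included, own scale in each panel) in each of the 20 kidneys, by group on the x axis, with 1 point a mouse and the mean ± SD of 5 mice beside the points. *Cyp4a10*, *Cyp4a12a* and *Cyp4b1* are lower after UUO without overlap in both genotypes, *Cyp4v3* is higher, and *Cyp4a12a* in sham kidneys is lower in all 5 KDM6A TubKO mice (at most 29.6 FPKM) than in any KDM6A Ctrl mouse (at least 57.7).

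The genes were compared on log2(FPKM + 1) in 1 limma fit of all 20 kidneys, with p-values adjusted over all 13842 genes (Benjamini-Hochberg). The words rose and fell stand for an adjusted p under 0.05, and log2 changes on this scale understate the change of weak genes. In KDM6A Ctrl kidneys, 4 of the 8 genes fell with UUO (*Cyp4a10*, *Cyp4a12a*, *Cyp4a12b* and *Cyp4b1*), against 15.1% of all genes, and 1 rose (*Cyp4v3*), against 56.7%. In KDM6A TubKO kidneys 3 fell (*Cyp4a10*, *Cyp4a12a* and *Cyp4b1*), against 16.7% of all genes, and *Cyp4v3* rose, against 57.9%. Over the 8 genes the log2 change had a median of -0.80 in the controls and -0.53 in KDM6A TubKO kidneys, beside 0.35 and 0.39 over all genes. *Cyp4a10*, *Cyp4a12a* and *Cyp4b1* were lower without overlap in each genotype, against 10.5% of all genes with UUO in KDM6A Ctrl mice and 12.6% in KDM6A TubKO mice. Between genotypes in sham kidneys, 2 genes were lower in KDM6A TubKO (*Cyp4a12a* and *Cyp4a12b*), against 3.89% of all genes, and 0 were higher, against 1.94%. In UUO kidneys limma called 0 of the 8 between genotypes, against 3.07% of all genes lower and 2.58% higher in KDM6A TubKO. There 3 were lower at an unadjusted p under 0.05, a threshold that 3407 of all 13842 genes met in 1 direction or the other. The F-test that takes library size as a covariate called 0 of the 8 there, but only 2 genes higher and 1 lower of all 13842, so its 0 carries no information on these genes. For the genotype difference averaged over both surgeries, 2 of the 8 were lower in KDM6A TubKO (*Cyp4a12a* and *Cyp4a12b*), against 7.49% of all genes, and 0 higher, against 3.95%. The change with UUO differed between genotypes for 0 of the 8, by the interaction term of the fit, against 0.0144% of all genes in each direction. At an unadjusted p under 0.05 it differed for 1 (*Cyp4a12a*), against 2171 of all 13842 genes.

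**Figure D2:**
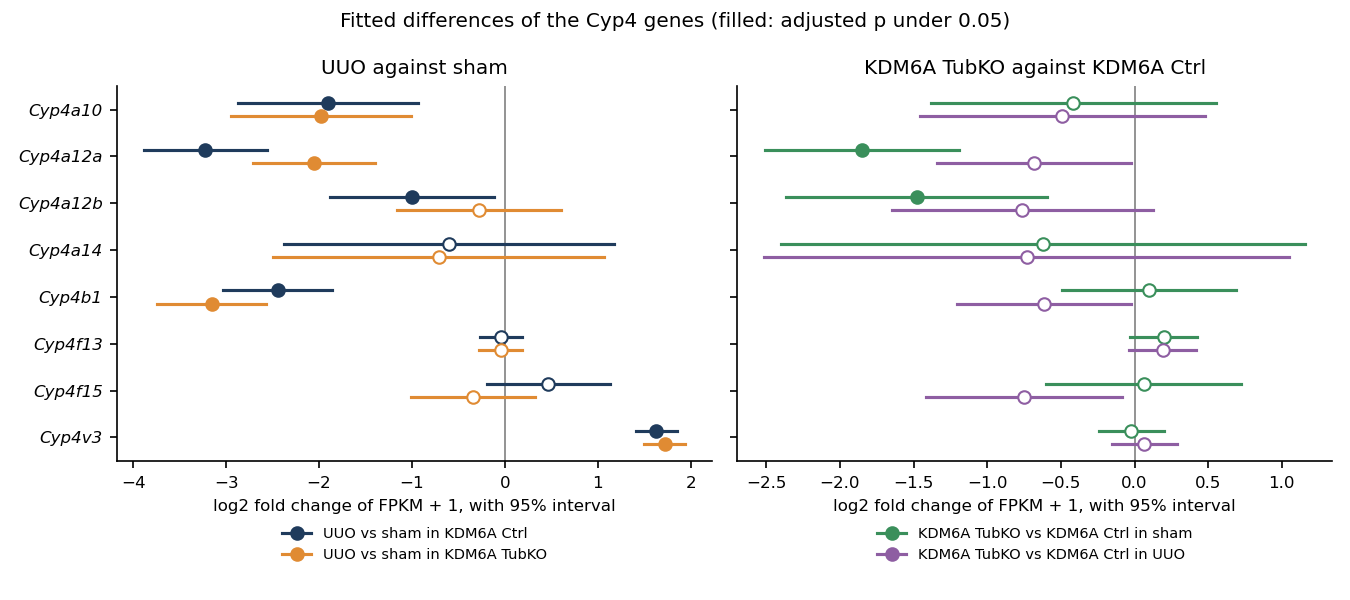
Fitted log2 fold changes of FPKM + 1 with 95% intervals (x axis) for each *Cyp4* gene (y axis), for UUO against sham in each genotype on the left and KDM6A TubKO against KDM6A Ctrl in each surgery on the right, with filled points where the adjusted p is under 0.05. *Cyp4a12a* is filled in both UUO comparisons, at -3.22 and -2.05, and in the sham genotype comparison, at -1.85.

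The androgen-dependent 20-HETE synthase *Cyp4a12a* showed the largest genotype difference of the 8 genes in sham kidneys. Its FPKM were 59.9, 99.1, 114, 57.7 and 106 in KDM6A Ctrl sham mice 1 to 5, and 29.6, 23.5, 16.6, 20.2 and 24.9 in KDM6A TubKO sham mice 1 to 5. The groups did not overlap, and the mean was 3.80-fold lower in KDM6A TubKO (23.0 ± 4.91 against 87.3 ± 26.6 FPKM, SD, n = 5 each). On the log2 scale the difference was -1.85 ± 0.31 (SE), with an adjusted p of 0.0059. Among all genes, 4.88% were lower in KDM6A TubKO sham kidneys without overlap. The call was kept without any single mouse, with adjusted p between 0.00254 and 0.0203.

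After UUO *Cyp4a12a* was low in both genotypes. KDM6A Ctrl UUO mice 1 to 5 had 6.79, 5.47, 16.5, 8.08 and 6.75 FPKM, and KDM6A TubKO UUO mice 1 to 5 had 7.02, 4.99, 8.10, 4.32 and 1.51. All 10 UUO kidneys lay below every sham kidney, KDM6A Ctrl UUO mouse 3 only just below the lowest KDM6A TubKO sham kidney. The mean was 10.02-fold lower after UUO in KDM6A Ctrl (log2 change -3.22 ± 0.31, SE, adjusted p = 3.41e-08) and 4.42-fold lower in KDM6A TubKO (-2.05 ± 0.31, adjusted p = 8.30e-06). The UUO groups of the genotypes overlapped, with a log2 difference of -0.68 (95% interval -1.34 to -0.02, adjusted p = 0.19). The change with UUO was smaller in KDM6A TubKO by 1.17 on the log2 scale (95% interval 0.24 to 2.10, unadjusted p = 0.0166), which did not hold over all genes (adjusted p = 0.222).

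*Cyp4a12b*, the near copy of *Cyp4a12a*, was also lower in KDM6A TubKO sham kidneys, with more overlap. Its FPKM were 28.2, 17.2, 28.5, 10.5 and 23.5 in KDM6A Ctrl sham mice 1 to 5 and 13.5, 3.28, 10.04, 5.22 and 5.15 in KDM6A TubKO sham mice 1 to 5. Only the highest KDM6A TubKO value reached into the KDM6A Ctrl range, and the mean was 2.90-fold lower. The log2 difference was -1.48 ± 0.42 (SE, adjusted p = 0.0462), and the call was lost in 13 of the 20 fits without 1 mouse, with adjusted p between 0.0526 and 0.114. These were the fits without each KDM6A TubKO sham mouse, KDM6A Ctrl sham mouse 1, 2, 3 or 5, KDM6A Ctrl UUO mouse 1, 4 or 5, or KDM6A TubKO UUO mouse 4. The mouse identifiers fall into 2 number series, which hold 3 and 2 of the KDM6A Ctrl sham mice but 1 and 4 of the KDM6A TubKO sham mice. With the series as a covariate the *Cyp4a12b* difference was -1.22 (adjusted p = 0.0981), whereas *Cyp4a12a* kept its call (-1.66, adjusted p = 0.0133). The whole number of an identifier, shared by some mice, never occurs in 2 groups and cannot be told apart from the group. After UUO the levels were 7.42, 6.04, 22.1, 8.45 and 9.74 in KDM6A Ctrl and 9.94, 3.37, 9.97, 6.36 and 1.58 in KDM6A TubKO mice 1 to 5. *Cyp4a12b* fell with UUO in KDM6A Ctrl by the test (-0.998 ± 0.42, adjusted p = 0.0413), and this call was lost in 7 of the 20 such fits, those without KDM6A Ctrl sham mouse 1, 3 or 5 or KDM6A Ctrl UUO mouse 1, 2, 4 or 5, with adjusted p between 0.062 and 0.0995. In KDM6A TubKO kidneys the difference was -0.28 ± 0.42 (adjusted p = 0.559), and sham and UUO values overlapped.

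The ratio of *Cyp4a12a* to *Cyp4a12b* in each kidney, computed after the levels were seen and given without a test, was above 1 in all 10 sham kidneys and below 1 in 9 of 10 UUO kidneys. Sham kidneys had ratios of 2.12 to 5.78 in KDM6A Ctrl and 1.65 to 7.16 in KDM6A TubKO mice. After UUO it was between 0.694 and 0.956 in KDM6A Ctrl and between 0.679 and 1.48 in KDM6A TubKO kidneys. The ratio thus separated the surgeries and overlapped between the genotypes. Summed over both genes, which does not depend on how shared reads were split, levels were 108.9 ± 30.4 FPKM in KDM6A Ctrl sham, 30.4 ± 7.29 in KDM6A TubKO sham, 19.5 ± 10.9 in KDM6A Ctrl UUO and 11.4 ± 6.21 in KDM6A TubKO UUO kidneys (SD, n = 5 each). The sum was lower in KDM6A TubKO sham than in KDM6A Ctrl sham kidneys (-1.79 on the log2 scale, adjusted p = 0.0112) and fell with UUO in KDM6A Ctrl (-2.50, adjusted p = 4.35e-06) and KDM6A TubKO (-1.50, adjusted p = 0.000884).

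**Figure D3:**
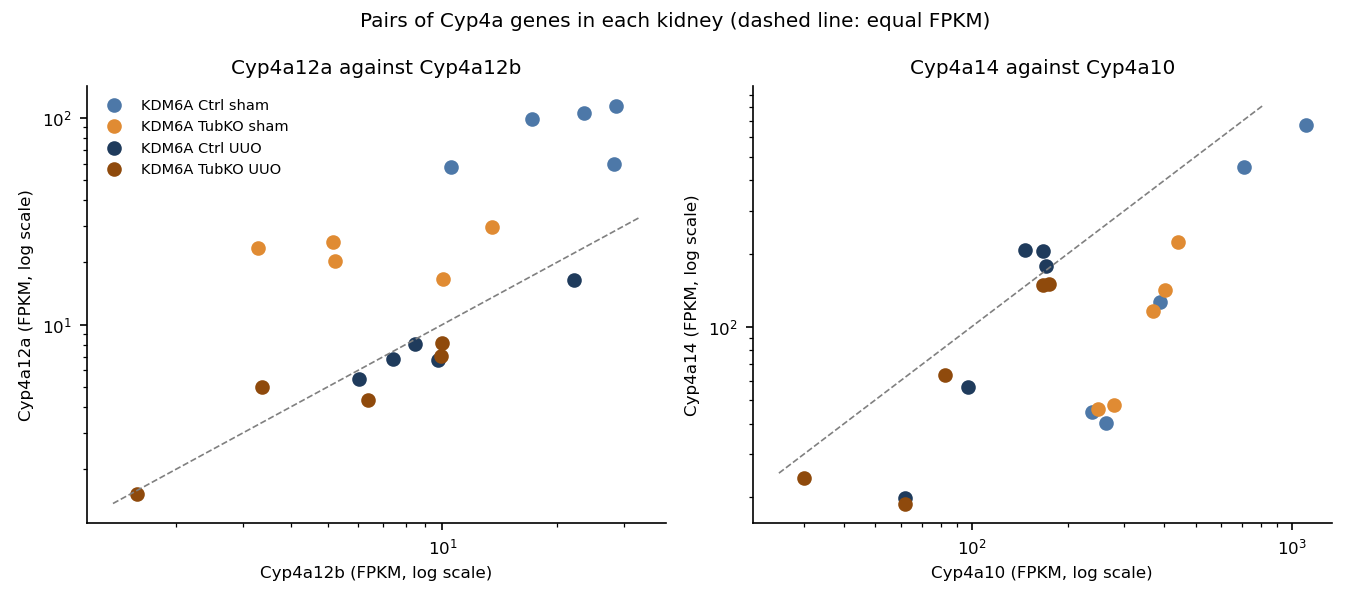
*Cyp4a12a* against *Cyp4a12b* on the left and *Cyp4a14* against *Cyp4a10* on the right, both axes in FPKM on a log scale, with 1 point a kidney and equal levels on the dashed line. On the left all 10 sham kidneys lie above the line and 9 of 10 UUO kidneys below it. On the right *Cyp4a14* varies from 18.8 to 676 FPKM over the 20 kidneys and follows *Cyp4a10* within each group.

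Genes known as markers of sex in mouse kidney were counted beside the *Cyp4a12* pair. Of 11 male-high genes other than *Cyp4* members, 0 changed between genotypes in sham kidneys (median log2 difference -0.15, beside -0.02 over all genes), and *Slco1a1*, an organic anion transporter, had the lowest p among them, with a difference of -1.40 (adjusted p = 0.108). *Akr1c21*, a hydroxysteroid dehydrogenase, was at 0.64 in the other direction (unadjusted p = 0.0288, adjusted p = 0.17). Of 4 female-high genes, 2 rose in KDM6A TubKO sham kidneys, against 1.94% of all genes: *Hao2*, a peroxisomal hydroxy acid oxidase, by 0.88 (adjusted p = 0.0193) and *Prlr*, the prolactin receptor, by 1.502 (adjusted p = 0.0377). In UUO kidneys 0 of the 4 female-high genes (median 0.07) and 0 of the 11 male-high genes (median -0.24) differed between genotypes. Averaged over surgeries it was also 0 of the 4 (median 0.51) and 0 of the 11 (median -0.12). With UUO, 9 of the 11 male-high genes fell in KDM6A Ctrl (median -1.63), against 15.1% of all genes. In KDM6A TubKO kidneys 9 fell (median -2.11), against 16.7% of all genes, while *Timd2* rose in each genotype (0.84 and 1.24, adjusted p = 0.000257 and 2.69e-06). Among the male-high genes, the P450 gene *Cyp2d9* fell by 3.72 and 3.28 on the log2 scale (adjusted p = 3.74e-09 and 1.42e-08).

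The PPARα targets *Cyp4a10* and *Cyp4a14* varied strongly between mice of the same group. *Cyp4a10* had 1103, 387, 238, 711 and 262 FPKM in KDM6A Ctrl sham mice 1 to 5 and 278, 248, 368, 439 and 402 in KDM6A TubKO sham mice 1 to 5. After UUO its FPKM were 167, 147, 170, 97.4 and 62.0 in KDM6A Ctrl and 30.0, 175, 82.5, 62.0 and 167 in KDM6A TubKO mice 1 to 5. Every UUO kidney was below every sham kidney. The mean was 4.201-fold lower after UUO in KDM6A Ctrl (log2 change -1.90 ± 0.46, SE, adjusted p = 0.00114) and 3.36-fold lower in KDM6A TubKO (-1.98 ± 0.46, adjusted p = 0.000739). Between genotypes it differed by -0.42 (95% interval -1.38 to 0.55, adjusted p = 0.693) in sham and by -0.49 (-1.46 to 0.48, adjusted p = 0.541) in UUO kidneys. Summing it with *Cyp4a31* and *Cyp4a32* changed none of its 4 calls.

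*Cyp4a14*, whose coding sequence is 75.19% identical to that of *Cyp4a10*, had 676, 126, 44.6, 454 and 40.3 FPKM in KDM6A Ctrl sham mice 1 to 5. In KDM6A TubKO sham mice it had 47.8, 45.9, 116, 223 and 141 FPKM. After UUO it had 204, 208, 178, 56.4 and 19.8 FPKM in KDM6A Ctrl and 23.9, 150, 63.6, 18.8 and 149 in KDM6A TubKO mice. Mice 1 and 4 of the KDM6A Ctrl sham group were highest for *Cyp4a14* and for *Cyp4a10*, and all 4 groups overlapped for *Cyp4a14*. The difference with UUO was -0.60 ± 0.85 (SE, adjusted p = 0.537) in KDM6A Ctrl and -0.71 ± 0.85 (adjusted p = 0.457) in KDM6A TubKO kidneys. The 95% intervals between genotypes were wide, from -2.40 to 1.16 in sham and from -2.51 to 1.05 in UUO kidneys.

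The transcript table splits *Cyp4a10* into Cyp4a10-201 and Cyp4a10-202. In sham kidneys Cyp4a10-202 made up between 53.7% and 61.6% of the gene in KDM6A Ctrl and between 44.7% and 66.6% in KDM6A TubKO mice. Its FPKM were 602, 232, 149, 404 and 145 in KDM6A Ctrl sham mice 1 to 5 and between 168 and 212 in KDM6A TubKO sham mice. After UUO it was listed at 0 in mice 1, 3 and 5 of KDM6A Ctrl, with 76.1 and 68.8 FPKM in mice 2 and 4, and at 0 in mice 1, 4 and 5 of KDM6A TubKO, with 114.9 and 39.0 in mice 2 and 3. No sham kidney was at 0. Adjusted over 26228 transcripts, Cyp4a10-202 fell in KDM6A Ctrl (adjusted p = 0.0052) and KDM6A TubKO (adjusted p = 0.00812), while Cyp4a10-201 differed by -1.24 ± 0.55 (SE, adjusted p = 0.0878) and -1.26 ± 0.55 (adjusted p = 0.0769). FPKM hold no count of reads, so a 0 may also be an assembly in which all reads went to the other transcript.

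**Figure D4:**
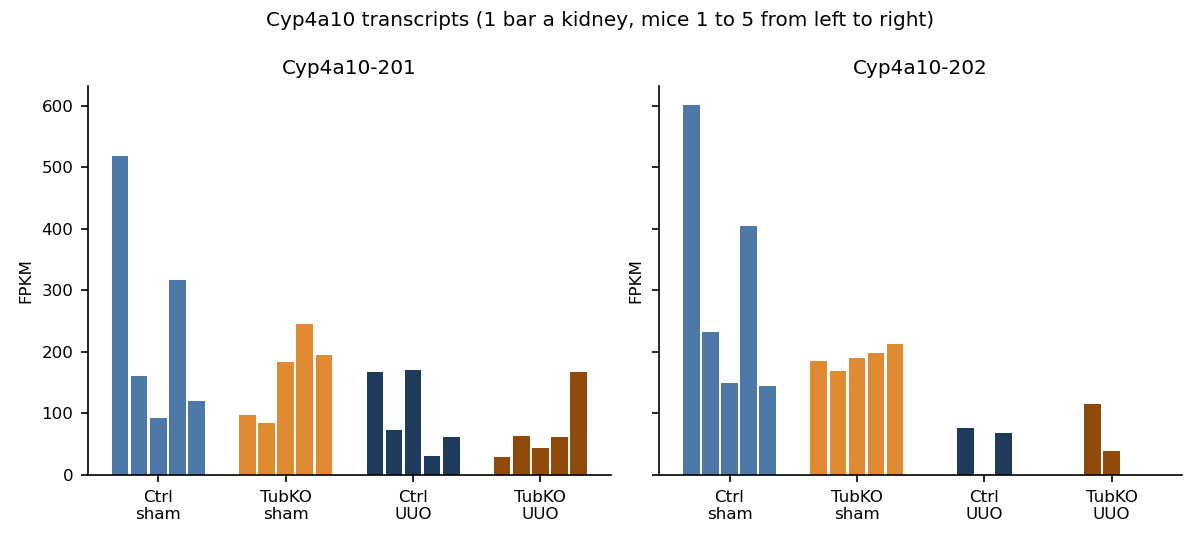
FPKM of the transcripts Cyp4a10-201 and Cyp4a10-202 (y axis, from 0) in each kidney, 1 bar a mouse, mice 1 to 5 from left to right within each group on the x axis. Cyp4a10-202 is present in all 10 sham kidneys, at 145 FPKM or more, and listed at 0 in 6 of 10 UUO kidneys.

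Of the 11 transcripts of the 8 genes, 4 fell with UUO in KDM6A Ctrl kidneys (Cyp4a10-202, Cyp4a12a-201, Cyp4b1-201 and Cyp4b1-204), against 9.83% of all transcripts, and Cyp4v3-201 rose, against 26.5%. The 4 that fell and the 1 that rose in KDM6A TubKO kidneys were the same transcripts, against 11.7% lower and 28.1% higher of all. Between genotypes in sham kidneys Cyp4a12a-201 was lower (adjusted p = 0.014), against 0.438% of all transcripts, 0 were higher, against 0.233%, and Cyp4a12b-201 did not pass (adjusted p = 0.118). In UUO kidneys limma called 0 of the 11 between genotypes, against 0.839% of all transcripts lower and 0.297% higher, with 3 at an unadjusted p under 0.05. The F-test called 0 of the 11 there, and 4 higher and 11 lower of all 26228 transcripts. Averaged over surgeries 1 was lower (Cyp4a12a-201), against 2.18%, and 0 higher, against 0.709%. By the interaction term limma called 0, against 0.061% lower and 0.0153% higher, with Cyp4a12a-201 at an unadjusted p under 0.05, and the F-test called 0 of the 11, with 15 higher and 21 lower of all transcripts. *Cyp4f13* was listed with 2 transcripts, of which Cyp4f13-204 was above 0 only in KDM6A Ctrl mice: sham mice 2, 3 and 4 (9.55, 10.8 and 8.22 FPKM) and UUO mouse 5 (16.01 FPKM). It differed between genotypes by -2.03 ± 0.78 (SE) in sham kidneys, which did not pass over all transcripts (adjusted p = 0.259).

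*Cyp4b1*, an enzyme known for hydroxylating short fatty acids and activating plant furans, was the most abundant of the 8 in sham kidneys of both genotypes. Its FPKM were 507, 693, 833, 560 and 802 in KDM6A Ctrl sham mice 1 to 5 and 799, 758, 550, 687 and 807 in KDM6A TubKO sham mice 1 to 5. After UUO they were 107, 98.3, 177, 160 and 88.8 in KDM6A Ctrl and 41.8, 168, 103, 62.1 and 68.0 in KDM6A TubKO mice 1 to 5. No UUO kidney came near the sham range. The mean was 5.38-fold lower after UUO in KDM6A Ctrl (log2 change -2.45 ± 0.28, SE, adjusted p = 2.95e-07) and 8.12-fold lower in KDM6A TubKO (-3.16 ± 0.28, adjusted p = 7.79e-09). The change with UUO differed between genotypes by -0.71 (95% interval -1.54 to 0.12, adjusted p = 0.387). In UUO kidneys *Cyp4b1* was at 88.7 ± 49.7 FPKM in KDM6A TubKO and 126 ± 39.5 in KDM6A Ctrl, a log2 difference of -0.61 (unadjusted p = 0.042, adjusted p = 0.188). Without KDM6A TubKO UUO mouse 2, the highest of its group, the difference was -0.88 and passed (adjusted p = 0.0341). It passed in only 1 of the 20 fits without 1 mouse, and adjusted p reached 0.404 in the others. Transcript Cyp4b1-201 made up at least 97.4% of the gene in every kidney.

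*Cyp4v3*, the mouse counterpart of human *CYP4V2*, the gene of Bietti crystalline dystrophy and a hydroxylase of medium-chain fatty acids, was the 1 member that rose. It had 2.91, 2.26, 2.15, 2.28 and 1.93 FPKM in KDM6A Ctrl sham and 8.96, 9.77, 8.28, 8.65 and 10.5 in KDM6A Ctrl UUO mice 1 to 5. KDM6A TubKO mice 1 to 5 had 1.46, 2.27, 2.44, 2.88 and 2.33 FPKM after sham surgery and 8.67, 9.46, 11.0, 9.45 and 9.86 after UUO. Sham and UUO kidneys were far apart, with little spread inside the groups. The mean was 4.001-fold higher in KDM6A Ctrl (log2 change 1.63 ± 0.11, SE, adjusted p = 1.70e-10) and 4.26-fold higher in KDM6A TubKO (1.72 ± 0.11, adjusted p = 6.01e-11). Genotypes differed by -0.02 (95% interval -0.24 to 0.20) in sham and by 0.07 (-0.16 to 0.29) in UUO kidneys. Genes without overlap and higher after UUO made up 45.8% of all genes in KDM6A Ctrl and 50.1% in KDM6A TubKO kidneys.

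*Cyp4f13* and *Cyp4f15* belong to the subfamily known for hydroxylating leukotrienes. *Cyp4f13* stayed within a narrow range, with 7.62 ± 0.322 FPKM in KDM6A Ctrl sham, 7.50 ± 1.60 in KDM6A Ctrl UUO, 8.90 ± 0.832 in KDM6A TubKO sham and 8.60 ± 0.978 in KDM6A TubKO UUO kidneys (SD, n = 5 each). In sham kidneys it was between 7.23 and 8.06 FPKM in KDM6A Ctrl and between 8.08 and 10.1 in KDM6A TubKO, without overlap, as for 2.82% of all genes that were higher in KDM6A TubKO. The log2 difference was 0.20 ± 0.11 (SE) and did not pass (adjusted p = 0.313). With UUO the difference was -0.04 (adjusted p = 0.749) in KDM6A Ctrl and -0.05 (adjusted p = 0.707) in KDM6A TubKO. After rescaling each kidney to a common upper quartile *Cyp4f13* fell (-0.29 and -0.31, adjusted p = 0.0171 and 0.0107), a scaling that moved the median of all genes by -0.21 in each genotype. Under quantile normalization, which moved that median by -0.40 and -0.43, it also fell (-0.42 in each genotype, adjusted p = 0.00191 and 0.00194).

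*Cyp4f15* was at the low end of the table and had 0.158, 4.91, 0.501, 2.38 and 0.798 FPKM in KDM6A Ctrl UUO mice 1 to 5. In KDM6A TubKO UUO mice 1 to 5 it had 0.29, 0.689, 0.0438, 0.136 and 0.777 FPKM, and it was at 0.667 ± 0.248 in KDM6A Ctrl sham and 0.753 ± 0.358 in KDM6A TubKO sham kidneys (SD, n = 5 each). Mice 2 and 4 of the KDM6A Ctrl UUO group stood above all other kidneys. The UUO groups differed by -0.75 ± 0.32 (SE, unadjusted p = 0.0285, adjusted p = 0.154), and KDM6A Ctrl UUO from sham kidneys by 0.47 ± 0.32 (adjusted p = 0.193), which passed without KDM6A Ctrl UUO mouse 1 (0.71, adjusted p = 0.041). That mouse was the lowest of its group. The difference passed in only 1 of the 20 fits without 1 mouse, and adjusted p reached 0.661 in the others. The summed FPKM of 12 markers of urothelium, the lining of the renal pelvis and ureter, were 69.2, 1243, 276, 549 and 341 in KDM6A Ctrl UUO mice 1 to 5, 29.2 to 166 in KDM6A TubKO UUO mice and at most 71.4 in sham kidneys. All 12 markers rose in KDM6A Ctrl UUO kidneys, and 8 of 12 were lower in KDM6A TubKO than in KDM6A Ctrl UUO kidneys. With the urothelium markers as a covariate the difference with UUO turned to -1.05 (adjusted p = 0.00715) in KDM6A Ctrl and was -1.14 (adjusted p = 0.000177) in KDM6A TubKO, where quantile normalization also gave a fall (-0.78, adjusted p = 0.0284). These markers themselves rose with UUO, 12 of 12 in KDM6A Ctrl and 6 of 12 in KDM6A TubKO kidneys. The marker level and the surgery therefore cannot be told apart in the fit with this covariate.

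**Figure D5:**
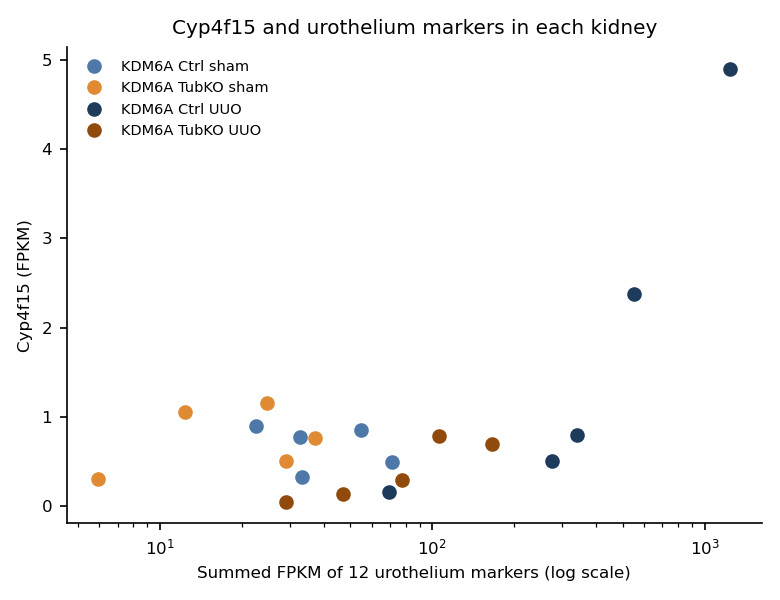
*Cyp4f15* in FPKM (y axis) against the summed FPKM of 12 urothelium markers on a log scale (x axis), 1 point a kidney, coloured by group. The 2 kidneys with the most urothelium marker RNA, KDM6A Ctrl UUO mice 2 (1243) and 4 (549), also have the most *Cyp4f15*, at 4.91 and 2.38 FPKM.

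Of 12 further *Cyp4* genes looked for, 6 were in the table. Of these, *Cyp4a31* followed *Cyp4a10*, with 288 ± 107 FPKM in KDM6A Ctrl sham, 95.1 ± 19.8 in KDM6A Ctrl UUO, 229.9 ± 28.5 in KDM6A TubKO sham and 85.9 ± 40.8 in KDM6A TubKO UUO kidneys, and fell with UUO in both genotypes (-1.54 each, adjusted p = 7.24e-05 and 6.56e-05). *Cyp4f14* also fell in both (-0.66 and -0.90, adjusted p = 4.01e-05 and 8.20e-07), and *Cyp4a32* fell in KDM6A Ctrl (-1.77, adjusted p = 0.0243) but did not pass in KDM6A TubKO (-0.84, adjusted p = 0.265). *Cyp4f16*, *Cyp4f17* and *Cyp4f18* rose in both. *Cyp4f18*, a leukotriene hydroxylase of mouse neutrophils, went from 0.236 ± 0.143 to 4.34 ± 2.19 FPKM in KDM6A Ctrl and from 0.171 ± 0.144 to 3.81 ± 1.03 in KDM6A TubKO kidneys (SD, n = 5 each). No further *Cyp4* gene differed between genotypes in either surgery by limma, with 1 of 6 (*Cyp4f14*, 0.28 in sham kidneys) at an unadjusted p under 0.05. In sham kidneys 2974 of all 13842 genes met that unadjusted threshold.

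P450 enzymes of this family need electrons from the reductase encoded by *Por*, helped by cytochrome b5. *Por* fell with UUO from 84.2 ± 12.1 to 32.3 ± 5.19 FPKM in KDM6A Ctrl (-1.36, adjusted p = 3.54e-08) and from 85.6 ± 2.77 to 23.1 ± 5.48 in KDM6A TubKO kidneys (-1.87, adjusted p = 3.75e-10, SD, n = 5 each). In UUO kidneys *Por* (-0.48, adjusted p = 0.0418) and the cytochrome b5 gene *Cyb5b* (-0.30, adjusted p = 0.0455) were lower in KDM6A TubKO, and 3 of the 5 redox genes fell and 1 rose with UUO in each genotype. Of 14 genes for the steps after omega hydroxylation, 11 fell and 1 rose with UUO in each genotype (median -0.91 in KDM6A Ctrl and -1.05 in KDM6A TubKO). They included *Aldh3a2*, the fatty aldehyde dehydrogenase (-1.001 and -0.96, adjusted p = 3.30e-08 and 4.10e-08), and *Scp2*, a peroxisomal thiolase and sterol carrier (-1.15 and -1.41, adjusted p = 1.27e-08 and 6.08e-10). Between genotypes 0 of the 14 passed in sham kidneys and 1 in UUO kidneys, the alcohol dehydrogenase gene *Adh7*, which was lower in KDM6A TubKO (-1.41, adjusted p = 0.021). Averaged over surgeries 2 of the 14 were lower in KDM6A TubKO, against 7.49% of all genes, and 0 were higher, against 3.95%. These 2 were *Adh7* (-0.83, adjusted p = 0.0252) and *Aldh3a2* (-0.25, adjusted p = 0.0261). Of 8 genes of the epoxide branch of arachidonic acid, 5 fell and 2 rose with UUO in each genotype, and 0 passed between genotypes in either surgery.

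*Ppara*, the gene of PPARα, was lower in KDM6A TubKO kidneys in both surgeries. It had 8.50, 7.91, 8.10, 6.05 and 9.84 FPKM in KDM6A Ctrl sham and 3.40, 4.89, 3.93, 5.76 and 2.96 in KDM6A TubKO sham mice 1 to 5, without overlap (-0.82, adjusted p = 0.0135). After UUO it had 2.63, 2.19, 3.01, 1.57 and 1.73 FPKM in KDM6A Ctrl and 0.582, 1.49, 1.36, 0.76 and 1.58 in KDM6A TubKO mice 1 to 5, with a single overlapping value (-0.59, adjusted p = 0.0486). *Ppara* fell with UUO in KDM6A Ctrl (-1.50, adjusted p = 2.64e-07) and KDM6A TubKO kidneys (-1.27, adjusted p = 1.74e-06). The coactivator gene *Ppargc1a* also fell (-0.64 and -0.53, adjusted p = 2.65e-05 and 0.000189), and it differed between genotypes by -0.04 in sham and 0.07 in UUO kidneys (adjusted p = 0.891 and 0.725). *Rxra*, the partner receptor, was at 22.3 ± 2.00 FPKM in KDM6A Ctrl sham and 18.96 ± 3.25 in KDM6A TubKO sham kidneys (-0.24, adjusted p = 0.513). Of 10 genes of PPAR receptors, partners and cofactors, *Ppara* among them, 2 were lower in KDM6A TubKO sham kidneys, the other being the coactivator gene *Ncoa2* (-1.29, adjusted p = 0.0214). In UUO kidneys 3 were lower, *Ppara* and the receptor genes *Pparg* (-1.003, adjusted p = 0.0349) and *Ppard* (-0.89, adjusted p = 0.0424), and 0 were higher in either surgery. With UUO 2 of the 10 rose and 5 fell in KDM6A Ctrl, and 2 rose and 4 fell in KDM6A TubKO kidneys. Of 23 PPARα target genes that are no *Cyp4* members, 18 fell and 1 rose with UUO in KDM6A Ctrl (median -0.82), and 15 fell and 3 rose in KDM6A TubKO kidneys (median -0.76). Between genotypes 0 of the 23 passed in sham kidneys (median -0.26, 7 at an unadjusted p under 0.05) and 0 in UUO kidneys (median -0.18, 2 at an unadjusted p under 0.05). Of all 13842 genes, 2974 in sham and 3407 in UUO kidneys had an unadjusted p under 0.05. Averaged over surgeries 2 of the 23 were lower in KDM6A TubKO, against 7.49% of all genes, and 0 were higher, against 3.95%. These 2 were *Cpt1a* (-0.31, adjusted p = 0.0334) and *Hadha* (-0.25, adjusted p = 0.0345). At an unadjusted p under 0.05 were 9 of the 23, against 4033 of all 13842 genes.

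Proximal tubule cells, a known site of *Cyp4a* expression, had less marker RNA after UUO. All 20 proximal tubule markers fell in each genotype (median -1.56 in KDM6A Ctrl and -2.18 in KDM6A TubKO), and their summed FPKM spanned 3707 to 5508 in sham and 973 to 2011 in UUO kidneys of KDM6A Ctrl mice. In KDM6A TubKO mice the sums were 4929 to 6216 in sham and 692 to 2126 in UUO kidneys. In RNA of a whole kidney, fewer cells of a type and less RNA per cell cannot be told apart. With the mean level of these markers as a covariate, 1 of the 4 members that fell in KDM6A Ctrl still passed (*Cyp4a12a*), and 0 of the 3 in KDM6A TubKO. Over all genes the same covariate took those lower with UUO from 2085 to 231 in KDM6A Ctrl and from 2307 to 123 in KDM6A TubKO, and those higher from 7844 to 2635 and from 8020 to 1637. The difference of *Cyp4a10* was then -0.50 in KDM6A Ctrl and -0.18 in KDM6A TubKO (adjusted p = 0.759 and 0.938), and that of *Cyp4b1* -0.29 and -0.40 (adjusted p = 0.465 and 0.453). *Cyp4a12a* was at -2.49 in KDM6A Ctrl (adjusted p = 0.0145) and -1.12 in KDM6A TubKO (adjusted p = 0.41), and *Cyp4a12b* at -1.60 in KDM6A Ctrl (adjusted p = 0.241). The covariate itself fell with UUO, so the marker level and the surgery cannot be told apart in this fit. In sham kidneys 0 of the 20 markers differed between genotypes (median 0.17), and the *Cyp4a12a* difference was -1.88 with the covariate (adjusted p = 0.00414). In UUO kidneys 1 of the 20, the transcription factor gene *Hnf4a*, was lower in KDM6A TubKO (-0.50, adjusted p = 0.0446), with a median of -0.41.

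Injury and immune markers moved the other way with UUO. All 9 tubule injury genes and all 10 macrophage markers rose in each genotype, and their part in the changes of the *Cyp4* genes was not tested. The targeted gene *Kdm6a* had between 1.76 and 2.33 FPKM in KDM6A Ctrl sham and between 0.862 and 1.61 in KDM6A TubKO sham kidneys (-0.48, adjusted p = 0.0502). After UUO the genotypes overlapped, between 2.28 and 3.67 and between 2.03 and 4.21 FPKM (0.02, adjusted p = 0.957). A whole-gene value in whole kidney also counts exons that are not deleted and cells without Cre, so it does not check the labels of the UUO kidneys. Over the whole gene table FPKM added up to 347739 to 387375 in sham and 298467 to 316964 in UUO kidneys.

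Genes whose deviations from their group means, over the 20 kidneys, were most like those of a member were listed by Pearson's r, as a description. The 2 most like *Cyp4a10* were *Cyp4a31* (r = 0.93) and *Cyp4a14* (r = 0.93), and those most like *Cyp4a14* were *Cyp4a10* (0.93) and *Ehhadh* (0.86), a peroxisomal enzyme of fatty acid oxidation. For *Cyp4a12a* they were *Pepd* (0.86) and *Pdzd11* (0.85), for *Cyp4a12b* *Bcat1* (0.88) and *Defb29* (0.86), and *Cyp4a12a* and *Cyp4a12b*, which share reads, had an r of 0.71. Pooled over the 20 kidneys, the deviations of *Cyp4a12a* and *Cyp4a10* had an r of -0.48. *Cyp4b1* was most like *Ces1f* (0.94), a carboxylesterase gene, and *Slco1a6* (0.91), and *Cyp4f15* most like *Ankrd22* (0.92) and *Elovl4* (0.91). For *Cyp4f13* they were *Selplg* (0.87) and *Ppox* (0.85), and for *Cyp4v3* *Ss18* (0.90) and *Usp25* (0.86).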

How the data were processed

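The authors deposited FPKM per gene and per transcript for each of the 20 kidneys, from oligo(dT) RNA read as 150 bp pairs. The submitters' processing notes name cutadapt, HISAT2, StringTie and GRCm38, without versions, and the study's methods name Ballgown. Because FPKM hold no read numbers, depth per kidney and counting error are unknown. The tables' own comparison columns were not used. Log2(FPKM + 1) was fitted in limma 3.58.1 (R 4.3.3) with 1 mean per group and a trended prior variance, two-sided, adjusted over 13842 genes or 26228 transcripts. A filter at a mean of 0.5 FPKM in at least 1 group removed none. Ballgown's test is described with a library-size covariate, which differs between surgeries here. An F-test with such a covariate was therefore written after that description and run as an alternative only. It is not the study's own run of Ballgown, and its calls do not stand for the calls that the study reported. Also tried were adding 0.1 FPKM before log2, keeping genes from 1 FPKM, fitting 2 groups at a time, rescaling, weights, covariates, summed near-identical genes and leaving out each mouse. The number series is the first 3 digits of the mouse identifier in the sample titles. The whole number before the hyphen is shared only by mice of the same group, so no covariate for it can be told apart from the group. The fit was tested on simulated data, but no outcome is given here and no error rate is drawn from it. Members and lists were chosen with earlier results of these data known, and *Cyp4a12a*, *Cyp4a12b* and *Cyp4b1* are in a table of the study. Named genes are all members, the listed *Cyp4* relatives, chosen regulators, up to 3 genes per list by lowest p, and the 2 genes most like each member; 1 regulator is not reported here. Replicates are separate mice, numbered in record order. Sequences were read from GENCODE vM21 (Python 3.11.15, Biopython 1.88).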

Additional observations from a re-analysis of the deposited data

Results flagged for a closer look

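Of the 32 sets of 5 values (8 genes in 4 groups), 3 held a value that stood apart from the other 4 by Dixon's criterion at the 95% level, which by chance happens in about 1 of 20 sets. The sets are not independent, because the 8 genes come from the same kidneys and *Cyp4a12a* and *Cyp4a12b* share reads. The 3 sets therefore cannot be weighed against that rate. KDM6A Ctrl UUO mouse 3 had 16.5 FPKM of *Cyp4a12a*, where the other 4 mice had between 5.47 and 8.08, and 22.1 FPKM of *Cyp4a12b*, where the others had between 6.04 and 9.74. The same kidney had the highest sum of 11 male-high genes in its group (10947 FPKM, others between 3423 and 6891) and the highest sum of proximal tubule markers (2011 FPKM, others between 973 and 1667), and the part of either in the *Cyp4a12* values was not tested. KDM6A TubKO UUO mouse 3 had 6.86 FPKM of *Cyp4f13*, where the other 4 mice had between 8.87 and 9.13.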

How the results depend on the processing

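The *Cyp4a12a* difference in sham kidneys kept its direction and its call under every alternative except the F-test with a library-size covariate (-2.01, adjusted p = 0.0919). That F-test called few genes of all 13842: 0 higher and 0 lower (KDM6A Ctrl, UUO against sham), 1 and 0 (KDM6A TubKO, UUO against sham), 3 and 12 (sham kidneys between genotypes) and 2 and 1 (UUO kidneys between genotypes), so a 0 from it says nothing about the members there. It left 0 of the 8 genes in place of the 1 higher and 4 lower (KDM6A Ctrl, UUO against sham), 1 higher and 3 lower (KDM6A TubKO, UUO against sham) and 2 lower (sham kidneys between genotypes). It also left 0 transcripts in place of 1 higher and 4 lower in each UUO comparison, 1 lower in sham kidneys and 1 lower averaged over surgeries. Of all 26228 transcripts the F-test called 0 with UUO in KDM6A Ctrl and 0 averaged over surgeries. With UUO in KDM6A TubKO it called 178 higher and 54 lower, and between genotypes in sham kidneys 3 higher and 8 lower. Under it *Cyp4v3* turned to -0.40 in KDM6A TubKO (adjusted p = 0.878). With the proximal tubule covariate the genes that fell with UUO went to 1 in KDM6A Ctrl and 0 in KDM6A TubKO, while all genes that fell went from 2085 to 231 and from 2307 to 123, and with quantile normalization to 5 in KDM6A TubKO, where it moved the median of all genes by -0.43. The 2 genes lower in KDM6A TubKO sham kidneys became 1 with a pseudocount of 0.1, only the compared groups, quantile normalization, the number series covariate, the perirenal fat covariate, the length trend removed and near-identical genes summed, which makes 1 gene of the *Cyp4a12* pair. Otherwise the cause of these changes was not tested. Averaged over surgeries, the lower genes became 1 with the urothelium covariate and with near-identical genes summed, 1 gene (*Cyp4f13*) was higher with the perirenal fat covariate, and the lower transcripts became 2 with the filter at 1 FPKM and with upper quartile rescaling. *Cyp4f15* turned to -1.05 in KDM6A Ctrl with the urothelium covariate, which itself rose with UUO and cannot be told apart from the surgery. Leaving out each mouse gave between 1 and 2 genes higher and between 3 and 4 lower with UUO in KDM6A Ctrl, 1 higher and 3 lower in KDM6A TubKO, between 1 and 2 lower in sham and between 0 and 1 lower in UUO kidneys of KDM6A TubKO, and between 0 and 1 higher and 2 lower averaged over surgeries. For transcripts it gave between 4 and 6 lower in KDM6A Ctrl, between 4 and 5 lower in KDM6A TubKO, and between 0 and 1 higher and between 1 and 2 lower averaged over surgeries. No paired analysis was made, because the groups are separate mice and each gave 1 kidney. The number of kidneys limits what can be seen, above all for *Cyp4a14*, whose intervals span over 3 on the log2 scale.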
